A study of Mus musculus with 16 samples.

Results

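NRF2, the product of Nfe2l2, and 9 genes of its regulation and of its glutathione and thioredoxin programme were followed in splenic myeloid-derived suppressor cells (MDSCs) of tumor-bearing mice. The 10 genes were taken by symbol, Nfe2l2, Keap1, Mafg, Nqo1, Gclc, Gclm, Slc7a11, Gsr, Txnrd1 and Srxn1, and all 10 were found among the 24421 gene symbols counted in each library. The study compared WT C57BL/6 mice with Nlrp3-/- mice, in which an EGFP cassette interrupts Nlrp3 in every tissue. It asked how loss of the NLRP3 inflammasome sensor changes the MDSCs that accumulate with a melanoma. Per the study's methods, the WT mice were C57BL/6J mice bought from a supplier. The Nlrp3-/- line, on a C57BL/6 background, came from another laboratory, and littermates are not mentioned. Genotype and source of the mice therefore cannot be told apart here. The part of the source in the genotype differences below was not tested. All mice carried implanted B16.F10 melanoma cells, and no mouse without a tumor was included. From each of 4 WT and 4 Nlrp3-/- mice, monocytic cells (M-MDSCs, CD11b-high Ly6C+ Ly6G-) and granulocytic cells (G-MDSCs, CD11b-high Ly6C- Ly6G+) were sorted from the spleen, which gave 4 groups of 4 libraries and 16 libraries in all. The sample labels give neither the age of the mice nor the day of the sort. The study's methods state that mice were matched for sex and age unless indicated otherwise. They give a range of ages and a default day of analysis after implantation, not the age of each mouse. mRNA was measured by QuantSeq, which reads the 3′ end of each transcript, and the total counts per library ranged from 2295967 to 6079866 with a median of 4839508.5.

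NRF2 is a transcription factor that is made continuously and degraded as fast as long as KEAP1 holds it for a ubiquitin ligase. Oxidants and electrophiles modify KEAP1, NRF2 escapes, pairs with a small MAF protein such as MAFG and binds the antioxidant response element, a short DNA motif in front of genes for glutathione synthesis, thioredoxin reduction and quinone detoxification. In myeloid cells this programme buffers the oxidants that the cells themselves produce. Because NRF2 is controlled mostly as a protein, the mRNA levels below describe the transcripts of these genes and not the amount or activity of NRF2.

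Levels are given in CPM, a gene's count per 1000000 counts of its library, scaled over all 16 libraries by TMM, a normalization that sets the bulk of genes equal between libraries. A count of 3, taken as the limit of detection, was worth between 0.349 and 1.17 CPM depending on the library. Mice are numbered by the replicate numbers of the samples. Libraries of both subsets that share a genotype and a number also share an animal tag in the sample descriptions and were taken as 1 mouse, whereas WT and Nlrp3-/- mice of the same number are different animals. These are bulk samples, so that fewer cells with a transcript and less transcript per cell cannot be told apart. Genes were called different at a Benjamini-Hochberg adjusted p under 0.05 by edgeR's quasi-likelihood test together with a fold change above 1.5.

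The antioxidant response element was looked for in the RefSeq promoter windows of the 10 genes, 250 bases before to 50 bases after each annotated start (build GRCm38.p6). Of the 10 genes, 8 were matched, and Gclc and Gsr were not matched. The core motif searched was TGACNNNGC on both strands, which reads GCNNNGTCA where it lies on the opposite strand, and no other motif was searched. It occurred in the windows of 5 of the 8 genes, Nfe2l2, Mafg, Gclm, Txnrd1 and Srxn1, and in 12.4% of all 32851 windows (14% of 27025 genes). The windows of Keap1, Nqo1 and Slc7a11 and the other 2 of the 3 windows of Txnrd1 did not contain these letters, which says nothing about elements farther away. The 5 windows with a match are shown because 4 of them belong to genes that differed between the genotypes below, and that of Srxn1 to a gene that did not pass the test. Each runs 5′ to 3′ along the gene's own strand, and the capitals mark the motif. The windows are chr2:75704614-75704913 (minus strand) for Nfe2l2, chr11:120633498-120633797 (minus strand) for Mafg, chr3:122245307-122245606 (plus strand) for Gclm, chr10:82858956-82859255 (plus strand) for Txnrd1 and chr2:152105274-152105573 (plus strand) for Srxn1.
Nfe2l2: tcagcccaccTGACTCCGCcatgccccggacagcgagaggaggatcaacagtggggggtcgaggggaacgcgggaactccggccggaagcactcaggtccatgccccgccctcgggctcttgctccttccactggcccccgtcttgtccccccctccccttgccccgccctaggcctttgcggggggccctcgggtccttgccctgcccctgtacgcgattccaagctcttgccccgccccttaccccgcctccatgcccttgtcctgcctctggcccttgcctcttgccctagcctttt
Mafg: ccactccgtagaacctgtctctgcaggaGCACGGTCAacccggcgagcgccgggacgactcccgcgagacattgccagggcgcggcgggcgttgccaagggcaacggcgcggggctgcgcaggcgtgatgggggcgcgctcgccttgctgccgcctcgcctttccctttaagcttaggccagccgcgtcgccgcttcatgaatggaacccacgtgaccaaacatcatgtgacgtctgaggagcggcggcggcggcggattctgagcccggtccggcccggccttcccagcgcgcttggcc
Gclm: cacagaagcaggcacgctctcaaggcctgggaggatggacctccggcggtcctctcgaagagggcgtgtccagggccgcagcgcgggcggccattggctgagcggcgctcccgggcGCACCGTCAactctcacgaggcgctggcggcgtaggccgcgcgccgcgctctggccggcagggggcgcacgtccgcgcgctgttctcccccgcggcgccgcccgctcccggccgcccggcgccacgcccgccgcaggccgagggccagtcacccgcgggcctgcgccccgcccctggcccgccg
Txnrd1: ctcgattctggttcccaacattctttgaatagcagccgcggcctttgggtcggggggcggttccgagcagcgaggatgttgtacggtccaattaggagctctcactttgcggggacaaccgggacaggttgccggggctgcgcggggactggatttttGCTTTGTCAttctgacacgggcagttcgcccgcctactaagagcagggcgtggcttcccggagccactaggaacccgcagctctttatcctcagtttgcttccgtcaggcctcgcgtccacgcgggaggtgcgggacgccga
Srxn1: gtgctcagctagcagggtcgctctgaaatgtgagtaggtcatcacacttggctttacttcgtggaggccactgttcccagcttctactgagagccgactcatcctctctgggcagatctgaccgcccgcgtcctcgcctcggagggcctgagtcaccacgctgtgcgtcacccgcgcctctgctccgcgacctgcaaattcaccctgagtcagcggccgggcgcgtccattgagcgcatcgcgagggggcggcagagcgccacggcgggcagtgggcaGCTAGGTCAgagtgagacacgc
The motif began at base 11 of the Nfe2l2 window on the gene's strand, and at base 29 for Mafg, 117 for Gclm, 159 for Txnrd1 and 279 for Srxn1 on the opposite strand. Only the match in Srxn1 lay past the annotated start. A match of these letters is a description of the sequence and was not tested as a binding site.

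In the GENCODE vM21 annotation of GRCm38, Nfe2l2 spans chr2:75675513-75704641, Keap1 chr9:21229730-21239361, Mafg chr11:120625117-120633600, Nqo1 chr8:107388225-107403206, Gclc chr9:77754535-77794485, Gclm chr3:122245557-122270732, Slc7a11 chr3:49892526-50443614, Gsr chr8:33652523-33698163, Txnrd1 chr10:82833951-82897712 and Srxn1 chr2:152105516-152111376. All 10 are annotated as protein coding. On the same strand, Mafg overlaps Sirt7, Txnrd1 overlaps Eid3, Nfe2l2 overlaps Gm24996 and Gclm overlaps Gm6061. Slc7a11 likewise overlaps Gm37692 and Gm37498, and Gsr overlaps Gm24727. Reads in the shared stretches may not have been assigned to either gene.

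The targeted gene and the subset markers were checked first. Nlrp3 was at 65.6 ± 22.5 CPM in WT M-MDSCs and 0.981 ± 0.611 CPM in Nlrp3-/- M-MDSCs, and at 296 ± 34.2 CPM in WT G-MDSCs and 9.38 ± 3.76 CPM in Nlrp3-/- G-MDSCs (SD, n = 4 in each). The summed level of 8 monocyte markers was 5217 to 8594 CPM in M-MDSC libraries and 787 to 1347 CPM in G-MDSC libraries, and that of 10 measured neutrophil markers was 115343 to 175732 CPM in G-MDSC libraries. In M-MDSC libraries the neutrophil markers summed to 1456 to 2554 CPM except in WT mouse 2, where they reached 8758 CPM. Results of the 10 genes that rest on this library are given with and without it. For the wider list described below, the number of calls without it is given. The 5 melanoma markers summed to at most 1.45 CPM in any library.

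**Figure D1:**
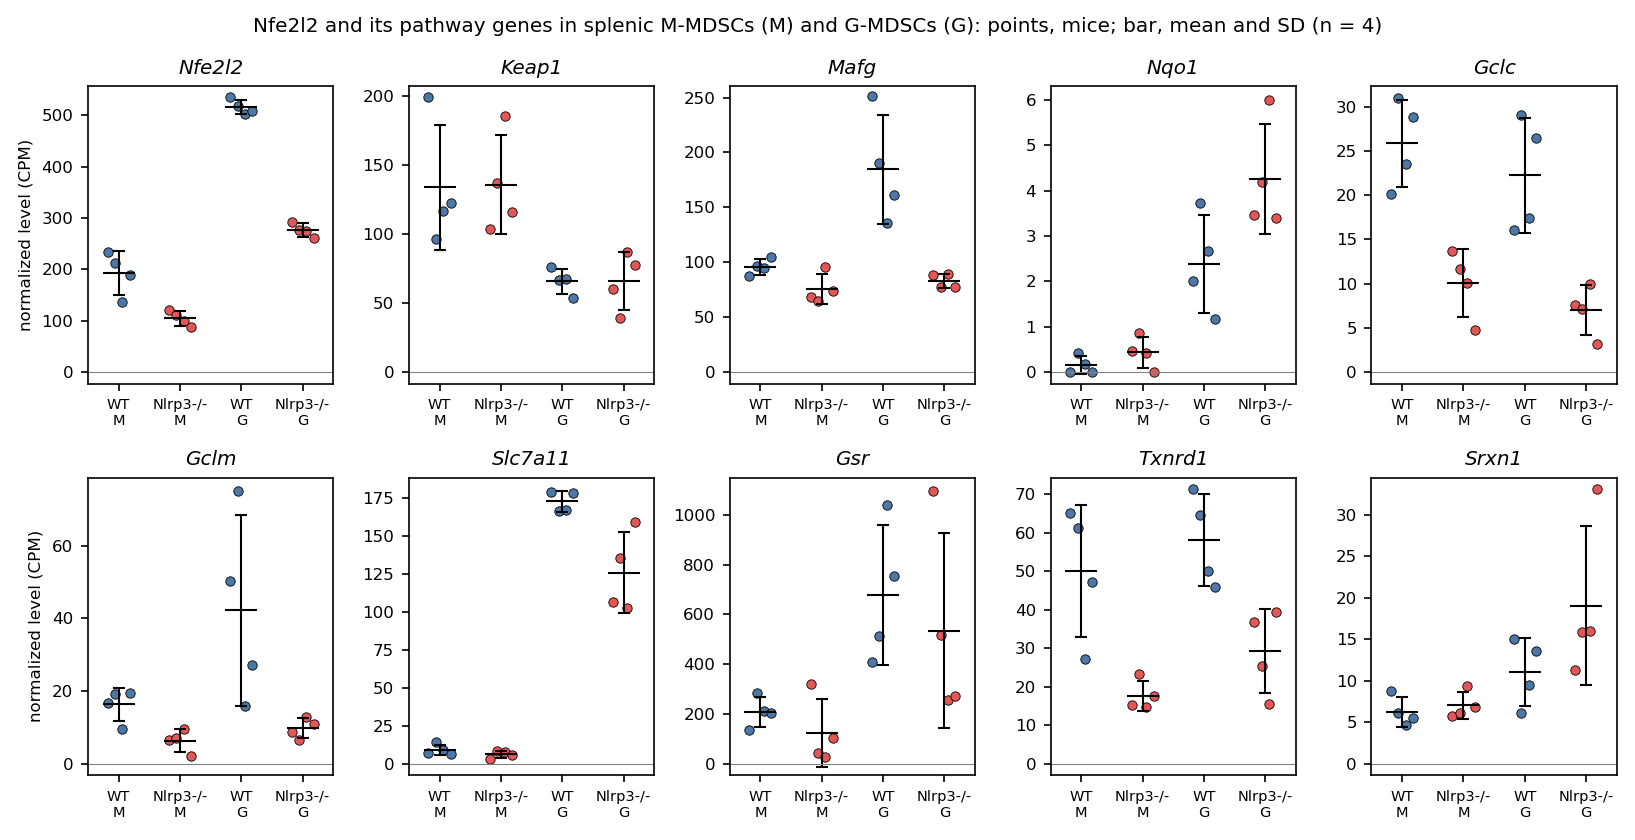
Level of each of the 10 genes (CPM, linear axis from 0) in the 4 groups. Each point is 1 mouse, and bars give the mean and SD (n = 4). With TMM scaling Nfe2l2 falls into 4 levels that do not overlap. Gclc splits by genotype, Slc7a11 splits by subset, and Gsr scatters widely within the Nlrp3-/- groups.

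With TMM scaling Nfe2l2 took 4 separate levels in the 4 groups. In WT M-MDSCs its level was 234, 212, 136 and 190 CPM in mice 1 to 4, and in Nlrp3-/- M-MDSCs 120, 111, 98.6 and 88.0 CPM. In WT G-MDSCs it was 535, 518, 502 and 508 CPM, and in Nlrp3-/- G-MDSCs 293, 277, 275 and 261 CPM. No 2 groups overlapped at this scaling, and their order from highest to lowest was WT G-MDSCs, Nlrp3-/- G-MDSCs, WT M-MDSCs and Nlrp3-/- M-MDSCs. The TMM factors were 0.721 to 0.803 in G-MDSC and 1.20 to 1.46 in M-MDSC libraries. By counts over library totals the 2 middle groups overlapped. WT M-MDSCs of mouse 1 (1261 of 4384248) lay above and those of mouse 3 (760 of 4209355) below Nlrp3-/- G-MDSCs of mouse 1 (1268 of 5388891). The coefficient of variation over the WT G-MDSC libraries was 2.75%, and only 0.163% of the 614 genes within 2-fold of its level varied less there. In WT M-MDSCs it was 21.9%, with mouse 3 the lowest.

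The 5 genes whose levels followed Nfe2l2 most closely over the 16 libraries were 2810474O19Rik (Pearson r 0.985 on log2 CPM), Itgam (0.985), Clip1 (0.982), Nck1 (0.981) and Rab27a (0.980), out of 10695 genes ranked. These values are dominated by the 4 groups, which every library of a group shares, and over the deviations from the group means the same genes had r of 0.70, 0.69, 0.51, 0.80 and 0.45. Itgam encodes CD11b, the surface protein on which both subsets were gated. Its level was 192 ± 41.1 CPM in WT and 114 ± 16.001 CPM in Nlrp3-/- M-MDSCs, and 545 ± 47.4 CPM in WT and 295 ± 33.1 CPM in Nlrp3-/- G-MDSCs (SD, n = 4). Among the other 9 genes of the programme, r with Nfe2l2 over the libraries was 0.87 for Slc7a11, 0.78 for Gsr, 0.77 for Mafg, 0.76 for Gclm, 0.71 for Txnrd1, 0.64 for Nqo1, 0.45 for Srxn1, 0.30 for Gclc and -0.68 for Keap1. Within groups the order was different, with Txnrd1 at 0.55 and Gclm at 0.45 the highest and Slc7a11 at -0.20 the lowest. The libraries come from 8 mice and are described here without a test.

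In M-MDSCs, Nlrp3-/- mice had less Nfe2l2, Gclc, Gclm and Txnrd1 mRNA than WT mice. These encode NRF2, both subunits of glutamate-cysteine ligase, which carries out the rate-limiting step of glutathione synthesis, and thioredoxin reductase 1, which keeps thioredoxin reduced. The 4 genes were 1.81-fold to 2.80-fold lower, and none of the 10 was called higher. Of the 9 genes tested, 4 were called, all lower, where 10.6% of the 9986 tested genes were called, 3.51% higher and 7.10% lower. From these data the study had already reported NF-E2-related factor 2, encoded by Nfe2l2, as lower in Nlrp3-/- M-MDSCs. Because the 10 genes were chosen with earlier results of these data known, their share is a description only. Nqo1 did not pass the filter on low counts.

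Nfe2l2 differed by -0.85 on the log2 scale (SE 0.19, adjusted p = 0.0177 by edgeR's quasi-likelihood test), and every Nlrp3-/- mouse lay below every WT mouse. Txnrd1 was at 65.0, 61.2, 27.1 and 47.3 CPM in WT mice 1 to 4 and at 15.1, 23.2, 14.6 and 17.6 CPM in Nlrp3-/- mice, a difference of -1.48 (SE 0.27, adjusted p = 0.00697). Its groups were apart, though the lowest WT mouse, mouse 3, came close to the highest Nlrp3-/- mouse. Gclc, the catalytic subunit, was at 20.1, 30.9, 23.5 and 28.8 CPM in WT and at 13.7, 11.6, 10.0 and 4.75 CPM in Nlrp3-/- M-MDSCs, a difference of -1.33 (SE 0.31, adjusted p = 0.0194). Gclm, the modifier subunit, was at 16.7, 19.3, 9.63 and 19.5 CPM in WT and at 6.51, 7.17, 9.61 and 2.06 CPM in Nlrp3-/- M-MDSCs, a difference of -1.35 (SE 0.40, adjusted p = 0.0478). For Gclm the lowest WT and the highest Nlrp3-/- library all but touched, and the lowest value rested on 16 reads. All 4 called genes had groups that did not overlap, where 11.7% of tested genes were lower without overlap.

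The regulators and the remaining targets did not pass the test in M-MDSCs. Keap1 was at 134 ± 45.2 CPM in WT and 136 ± 36.0 CPM in Nlrp3-/- mice, with a 95% confidence interval of the log2 difference from -0.48 to 0.56. Mafg, the small MAF partner, was at 96.0 ± 7.41 and 75.7 ± 13.7 CPM, with an interval from -0.66 to 0.02. Slc7a11, the cystine importer that supplies the cysteine of glutathione, was at 9.05 ± 3.48 and 5.99 ± 2.32 CPM, with an interval from -1.40 to 0.17. Srxn1, which repairs overoxidized peroxiredoxins, was at 6.23 ± 1.77 and 7.01 ± 1.65 CPM, with an interval from -0.47 to 0.83 (SD, n = 4 throughout). Nqo1, a quinone reductase and a textbook NRF2 target, gave 0, 3, 1 and 0 counts in WT mice and 4, 5, 2 and 0 counts in Nlrp3-/- mice, which is at or near the limit of detection, and a difference could not be seen at this depth.

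In both Nlrp3-/- groups Gsr, glutathione reductase, had the highest coefficient of variation of the 10 genes. It was at 135, 285, 210 and 203 CPM in WT M-MDSCs and at 319, 43.3, 26.3 and 104 CPM in Nlrp3-/- M-MDSCs. In the Nlrp3-/- group mouse 1 was above every WT mouse and the other 3 were below every WT mouse. The coefficient of variation in Nlrp3-/- M-MDSCs was 110%, higher than in 99.8% of the 1807 genes within 2-fold of its level. Over all 8 mice the difference was -0.69 (SE 0.61, adjusted p = 0.473 by edgeR's quasi-likelihood test), and without Nlrp3-/- mouse 1 it was -1.86 (adjusted p = 0.00851).

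Single libraries decided part of the M-MDSC count. Without WT mouse 2, the library with the high neutrophil markers, or without WT mouse 4, only Txnrd1 was called of the 10 genes. Without WT mouse 2 the log2 difference was -0.80 for Nfe2l2 (adjusted p = 0.0561 by edgeR's quasi-likelihood test), -1.22 for Gclc (0.0589), -1.25 for Gclm (0.117) and -1.37 for Txnrd1 (0.0240). Without Nlrp3-/- mouse 4 it was Gclc and Txnrd1, without WT mouse 1 or Nlrp3-/- mouse 2 Nfe2l2, Gclc and Txnrd1, and without Nlrp3-/- mouse 1 the 4 genes and Gsr. Over these fits the log2 difference of Nfe2l2 stayed between -0.99 and -0.73 and its adjusted p between 0.00842 and 0.0561, and that of Txnrd1 between -1.69 and -1.31 with adjusted p between 0.00366 and 0.0267. The call of Gclm was lost under 5 alternatives with all libraries, scaling by library size alone, the model of all 16 libraries, the replicate number as a block (replicate block), and offsets for the GC content and length of transcripts without and with that block, at an adjusted p between 0.0509 and 0.242. Of the 1060 genes called in M-MDSCs, 66.9% were lower in Nlrp3-/- mice, and 45.4% of the calls were lower with scaling by library size alone.

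In G-MDSCs the same 4 genes were lower in Nlrp3-/- mice, and Mafg as well. Nfe2l2, Mafg, Gclc, Gclm and Txnrd1 were 1.98-fold to 4.57-fold lower, and no gene of the 10 was called higher. Of the 10 genes tested, 5 were called, all lower, where 16.4% of the 9273 tested genes were called, 4.70% higher and 11.7% lower. The groups of 6 genes, these 5 and Slc7a11, did not overlap, where 12.3% of tested genes were lower without overlap.

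Nfe2l2 differed by -0.98 (SE 0.13, adjusted p = 0.000280 by edgeR's quasi-likelihood test), from 502 to 535 CPM in WT to 261 to 293 CPM in Nlrp3-/- mice. Mafg was at 251, 191, 136 and 162 CPM in WT mice 1 to 4 and at 88.2, 77.8, 88.9 and 77.6 CPM in Nlrp3-/- mice, a difference of -1.24 (SE 0.19, adjusted p = 0.000549). Every WT library was above every Nlrp3-/- library, and the WT mice spread more widely. Gclm was at 50.4, 75.1, 15.99 and 27.2 CPM in WT and at 8.78, 6.42, 12.8 and 11.02 CPM in Nlrp3-/- G-MDSCs, a difference of -2.19 (SE 0.41, adjusted p = 0.00266) and the greatest of the 10. Its WT level rested largely on mice 1 and 2, while mouse 3 was near the Nlrp3-/- level. Gclc was at 16.03, 29.1, 17.4 and 26.5 CPM in WT and at 7.62, 7.16, 9.95 and 3.15 CPM in Nlrp3-/- mice, a difference of -1.75 (SE 0.36, adjusted p = 0.00441). Txnrd1 was at 71.4, 64.6, 50.2 and 45.9 CPM in WT and at 36.7, 25.4, 15.5 and 39.3 CPM in Nlrp3-/- mice, a difference of -1.08 (SE 0.27, adjusted p = 0.0140). Both genes separated the genotypes without overlap.

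Slc7a11 was at 179, 166, 167 and 178 CPM in WT G-MDSCs and at 107, 135, 102 and 159 CPM in Nlrp3-/- G-MDSCs. All Nlrp3-/- mice lay below all WT mice, the adjusted p was 0.0355 by edgeR's quasi-likelihood test, and the fold change of 1.46 missed the required 1.5. With offsets for the GC content and length of transcripts its log2 difference turned from -0.54 to 0.14 (adjusted p = 0.655). Keap1 was at 66.1 ± 9.06 CPM in WT and 66.1 ± 20.8 CPM in Nlrp3-/- mice, with an interval of the log2 difference from -0.57 to 0.40. Gsr was at 407, 511, 1041 and 755 CPM in WT and at 1094, 517, 254 and 273 CPM in Nlrp3-/- mice, with an interval from -1.30 to 0.44. The Nlrp3-/- mouse with the most Gsr was again mouse 1, and without it the difference was -1.04 (adjusted p = 0.0479).

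Nqo1 and Srxn1 had higher means in Nlrp3-/- G-MDSCs and did not pass the test. Nqo1 gave 6, 11, 11 and 3 counts in WT mice and 15, 17, 29 and 13 counts in Nlrp3-/- mice, or 2.39 ± 1.08 and 4.27 ± 1.21 CPM, with an interval from -0.36 to 1.82 (adjusted p = 0.343 by edgeR's quasi-likelihood test). Srxn1 was at 15.0, 6.09, 9.45 and 13.6 CPM in WT and at 11.3, 15.8, 15.95 and 33.0 CPM in Nlrp3-/- mice, with an interval from -0.10 to 1.49 (adjusted p = 0.209). The groups of Srxn1 overlapped, and Nlrp3-/- mouse 4 stood highest.

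The G-MDSC calls depended little on a single library. Without Nlrp3-/- mouse 2, Txnrd1 was no longer called (adjusted p = 0.0508), and the other 4 genes were called whichever library was left out. Gsr was called as well without Nlrp3-/- mouse 1, and Slc7a11 without Nlrp3-/- mouse 4. Of the 1522 genes called in G-MDSCs, 71.4% were lower in Nlrp3-/- mice, against 51.9% with scaling by library size alone, 60.9% with upper-quartile scaling and 56.6% in a model of all 16 libraries.

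**Figure D2:**
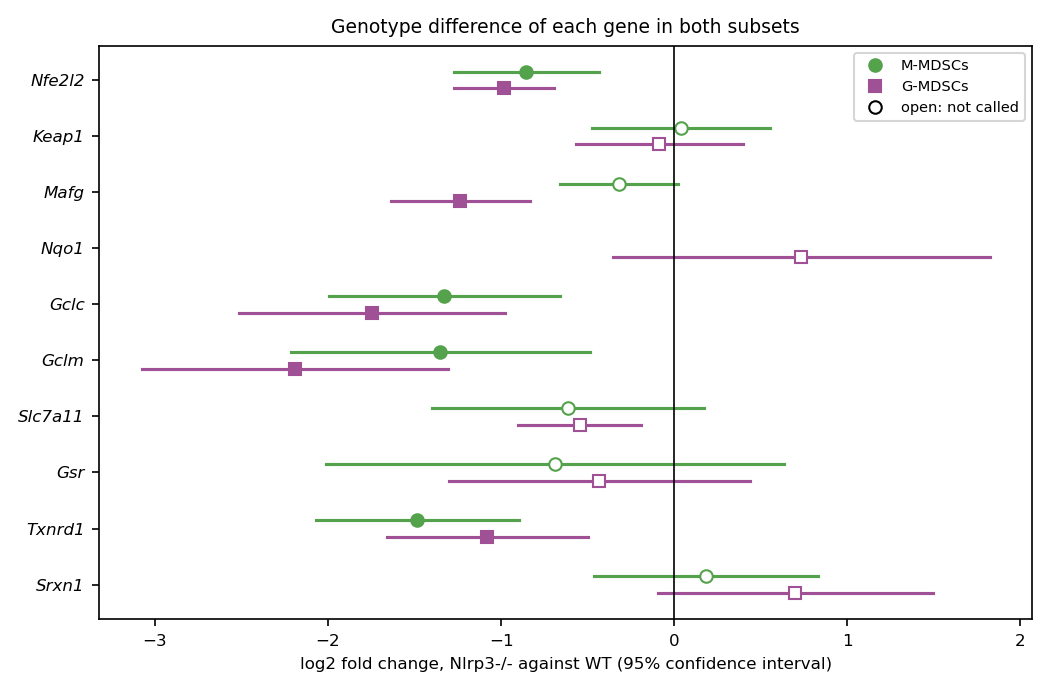
Log2 fold change of Nlrp3-/- against WT for each gene with its 95% confidence interval, in M-MDSCs (circles) and G-MDSCs (squares). Filled symbols were called. Nfe2l2, Gclc, Gclm and Txnrd1 lie to the left of 0 in both subsets, Mafg only in G-MDSCs is filled, and Nqo1 has no value in M-MDSCs because it was not tested there.

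Across both subsets, 4 of the 9 genes tested in both were called lower in each, and 6.22% of the 8823 genes tested in both were. This share and those within each subset are descriptions, since the 10 genes were chosen with earlier results of these data known. By their tags the subsets come from the same mice, and they are not independent. The median log2 difference of the tested genes of the 10 was -0.69 in M-MDSCs and -0.76 in G-MDSCs, where it was 0.07 and 0.03 over all tested genes. Markers of red pulp macrophages moved the other way. Of 8 such markers, 6 were called higher in Nlrp3-/- mice in M-MDSCs and 6 in G-MDSCs, none was called lower, and none was at 0 in a whole group. Their summed level was 74.3 to 118 CPM in WT and 146 to 309 CPM in Nlrp3-/- M-MDSCs, and 392 to 714 CPM in WT and 892 to 1134 CPM in Nlrp3-/- G-MDSCs. In G-MDSCs most of this sum was Slc40a1, at 447 ± 98.8 CPM in WT and 596 ± 76.3 CPM in Nlrp3-/- mice. Slc40a1 was at 6.03 ± 2.15 CPM in WT M-MDSCs, so that it also differed by subset. C1qa was at 28.7 ± 20.9 CPM in WT and 90.2 ± 14.4 CPM in Nlrp3-/- G-MDSCs. The summed level of 8 dendritic cell markers was 332 to 472 CPM in WT and 478 to 823 CPM in Nlrp3-/- M-MDSCs, and 278 to 501 CPM in WT and 657 to 1024 CPM in Nlrp3-/- G-MDSCs, with 1 marker called higher in each subset. In M-MDSCs most of this sum was H2-Aa, at 327 ± 54.6 CPM in WT and 577 ± 149 CPM in Nlrp3-/- mice. In G-MDSCs it was H2-Aa and Itgax. The dendritic cell markers Zbtb46, Xcr1, Clec9a and Siglech were at most at 3.72 CPM in any library. Of the markers of the sorted cells, 2 of 9 tested neutrophil markers were called higher and 1 of 8 monocyte markers lower in Nlrp3-/- M-MDSCs, and 1 of 7 monocyte markers was called higher and 1 of 10 neutrophil markers lower in Nlrp3-/- G-MDSCs. The monocyte markers summed to 5217 to 7808 CPM in WT and 6599 to 8594 CPM in Nlrp3-/- M-MDSCs, and to 787 to 1092 CPM in WT and 1124 to 1347 CPM in Nlrp3-/- G-MDSCs. The neutrophil markers summed to 1456 to 8758 CPM in WT and 2207 to 2554 CPM in Nlrp3-/- M-MDSCs, and to 115343 to 151443 CPM in WT and 141169 to 175732 CPM in Nlrp3-/- G-MDSCs. The part of these cell types in the lower levels of the NRF2 genes was not tested.

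The difference between the genotypes in the 10 genes was then compared between the subsets in 1 model of all 16 libraries. None of the 10 was called by edgeR's quasi-likelihood test or by DESeq2, 1 had an unadjusted p under 0.05, and 0.0280% of the 10696 tested genes were called. That gene was Mafg, for which the difference in G-MDSCs minus that in M-MDSCs was -0.81 (SE 0.25, 95% confidence interval -1.33 to -0.28, adjusted p = 0.908). For Nfe2l2 the difference between subsets was -0.01, with an interval from -0.49 to 0.46. The intervals were wider for the target genes, from -1.28 to 0.69 for Gclc, -2.01 to 0.56 for Gclm and -0.33 to 1.36 for Txnrd1. These intervals hold 0 as well as differences of more than 2-fold.

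The subsets themselves differed strongly, within either genotype. Nfe2l2, Slc7a11 and Gsr were higher in G-MDSCs than in M-MDSCs of both WT and Nlrp3-/- mice, and Keap1, the inhibitor of NRF2, was lower in both. In WT mice 6 of 9 tested genes were called, 5 higher and 1 lower in G-MDSCs, where 53.3% of 9739 tested genes were called, 26.3% higher and 27.1% lower. In Nlrp3-/- mice 6 of 10 were called, also 5 higher and 1 lower, where 51.0% of 10071 tested genes were called, 23.7% higher and 27.4% lower. Both shares, 66.7% and 60%, were near those of all genes. Nqo1, 1 of the 5 called higher in Nlrp3-/- mice, was at or near the limit of detection in their M-MDSCs.

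Slc7a11 differed most. From 6.87, 14.1, 8.74 and 6.51 CPM in WT M-MDSCs it went to 166 to 179 CPM in WT G-MDSCs, an 18.6-fold higher level (log2 4.22, SE 0.24, adjusted p = 7.03e-08 by edgeR's quasi-likelihood test). From 2.91, 8.02, 7.52 and 5.52 CPM in Nlrp3-/- M-MDSCs it went to 102 to 159 CPM in Nlrp3-/- G-MDSCs, a 19.8-fold higher level (log2 4.31, SE 0.28, adjusted p = 2.18e-08). The highest M-MDSC value was that of WT mouse 2, the library with the high neutrophil markers, and without it the log2 difference in WT mice was 4.47. Without that library the same 6 genes were called in WT mice, with log2 differences of 1.41 for Nfe2l2, -1.21 for Keap1, 0.89 for Mafg, 1.42 for Gclm and 1.84 for Gsr.

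Nfe2l2 was 2.68-fold higher in G-MDSCs of WT mice (log2 1.42, SE 0.18, adjusted p = 3.31e-05 by edgeR's quasi-likelihood test) and 2.45-fold higher in those of Nlrp3-/- mice (log2 1.29, SE 0.15, adjusted p = 8.20e-06). Keap1 was 2.02-fold lower in WT G-MDSCs (log2 -1.02, SE 0.22, adjusted p = 0.00203) and 2.21-fold lower in Nlrp3-/- G-MDSCs (log2 -1.15, SE 0.24, adjusted p = 0.000962). Its lowest M-MDSC library was at 96.3 CPM and its highest G-MDSC library at 86.8 CPM, so that the subsets were apart in both genotypes. Gsr was 3.26-fold higher in WT G-MDSCs (log2 1.70, SE 0.30, adjusted p = 0.000432) and 3.94-fold higher in Nlrp3-/- G-MDSCs (log2 1.98, SE 0.66, adjusted p = 0.0207). In every one of the 8 mice Gsr was higher in the G-MDSCs, but the Nlrp3-/- groups overlapped because M-MDSCs of mouse 1 were at 319 CPM and G-MDSCs of mice 3 and 4 at 254 and 273 CPM. Without mouse 1 in the G-MDSC group, or mouse 2 or 4 in the M-MDSC group, the call of Gsr in Nlrp3-/- mice was lost, at an adjusted p of up to 0.0877.

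**Figure D3:**
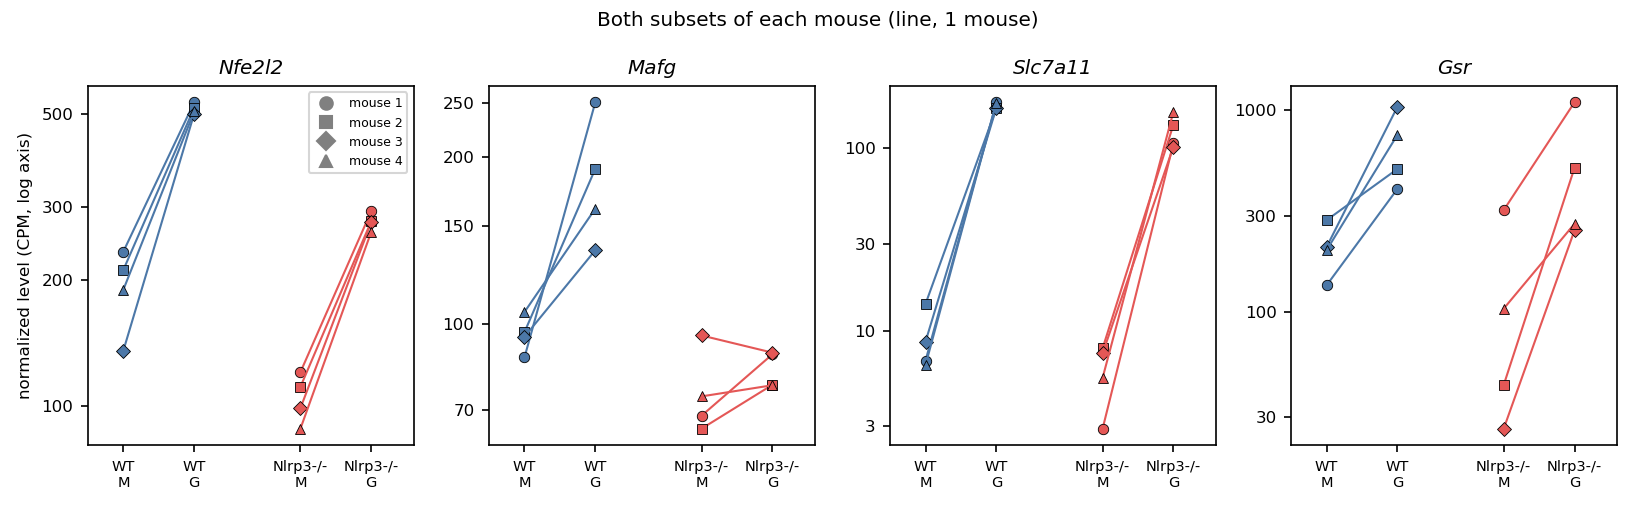
Level (CPM, log axis) of Nfe2l2, Mafg, Slc7a11 and Gsr in M-MDSCs (M) and G-MDSCs (G) of each mouse, joined by a line per mouse, WT in blue and Nlrp3-/- in red. Nfe2l2, Slc7a11 and Gsr are higher in G-MDSCs of all 8 mice, whereas Mafg is higher in all 4 WT mice and in 3 of the 4 Nlrp3-/- mice, by little.

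Mafg and Gclm were called higher in G-MDSCs of WT mice and were not called in Nlrp3-/- mice. Mafg was 1.93-fold higher in WT G-MDSCs (log2 0.95, SE 0.19, adjusted p = 0.00118 by edgeR's quasi-likelihood test), and in Nlrp3-/- mice its log2 difference was 0.02, with an interval from -0.33 to 0.38, and below 0 with scaling by library size alone or by the upper quartile. Gclm was 2.60-fold higher in WT G-MDSCs (log2 1.38, SE 0.41, adjusted p = 0.0135) although mouse 3, at 15.99 CPM, lay within the M-MDSC range. Without that comparison's highest library, the G-MDSCs of WT mouse 2, the adjusted p of Gclm was 0.0502. In Nlrp3-/- mice the log2 difference of Gclm was 0.53, with an interval from -0.41 to 1.47. Whether these subset differences depend on the genotype is the same contrast as the one tested in the model of all 16 libraries, where neither gene was called.

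Srxn1 and Nqo1 were called higher in G-MDSCs of Nlrp3-/- mice. Srxn1 was 2.51-fold higher there (log2 1.33, SE 0.35, adjusted p = 0.00582 by edgeR's quasi-likelihood test). In WT mice its log2 difference was 0.82 (SE 0.34, adjusted p = 0.0598), and with the mouse as a replicate block, which pairs the subsets of each animal, it was 0.78 and called (adjusted p = 0.0481). It was also called by DESeq2 (adjusted p = 0.0486), with the offsets (adjusted p = 0.0419, and 0.0331 with the block), and without the M-MDSCs of WT mouse 1 (0.0407) or the G-MDSCs of WT mouse 2 (0.0175). Nqo1 was at 3.41 to 6.01 CPM in Nlrp3-/- G-MDSCs and at 0 to 0.853 CPM in their M-MDSCs (log2 3.17, SE 0.74, adjusted p = 0.00249). The M-MDSC libraries gave 4, 5, 2 and 0 counts, at or near the limit of detection. Nqo1 passed the count filter only through the G-MDSC libraries, so that its call follows in part from the filter and its fold is uncertain. With at least 10 counts required in every library it was not tested. In WT mice Nqo1 had 31 counts over the 4 G-MDSC libraries and 4 counts over the 4 M-MDSC libraries and was not tested in the main fit. With no filter and in the model of all 16 libraries it was called higher in WT G-MDSCs too, from the same low counts. Gclc and Txnrd1 were not called between the subsets of either genotype with TMM scaling within the 2 groups. Gclc had intervals from -0.75 to 0.32 in WT and -1.53 to 0.28 in Nlrp3-/- mice, and Txnrd1 from -0.36 to 0.78 and -0.02 to 1.25. In Nlrp3-/- mice Txnrd1 was called higher in G-MDSCs in the model of all 16 libraries (log2 0.73, adjusted p = 0.0406 by edgeR's quasi-likelihood test), with the offsets for GC content and length (log2 0.73, adjusted p = 0.0467), with the offsets and the replicate block (log2 0.69, adjusted p = 0.0280), and without the G-MDSCs of mouse 3 (log2 0.86, adjusted p = 0.0149).

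These subset differences are relative to TMM. With scaling by library size alone the median log2 difference of all tested genes between the subsets was -0.79 in WT and -0.83 in Nlrp3-/- mice, against -0.05 and -0.12 with TMM, and the calls were 81.3% and 81.5% lower in G-MDSCs against 50.8% and 53.6%. Upper-quartile scaling gave a median of -0.27 and 61.8% lower calls in WT mice and a median of -0.28 in Nlrp3-/- mice. By library size alone Nfe2l2 was at 0.68 in WT mice and at 0.57 in Nlrp3-/- mice, where it no longer reached the fold of 1.5, and Keap1 was called lower and Slc7a11 higher in both genotypes. Mafg (0.19, adjusted p = 0.377 by edgeR's quasi-likelihood test) and Gclm (0.62, adjusted p = 0.178) were no longer called in WT mice, nor were Gsr (1.25, adjusted p = 0.116) and Srxn1 (0.59, adjusted p = 0.150) in Nlrp3-/- mice. Gclc was then called lower in G-MDSCs of both, at -0.96 in WT (adjusted p = 0.00431) and -1.34 in Nlrp3-/- mice (adjusted p = 0.0158).

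**Figure D4:**
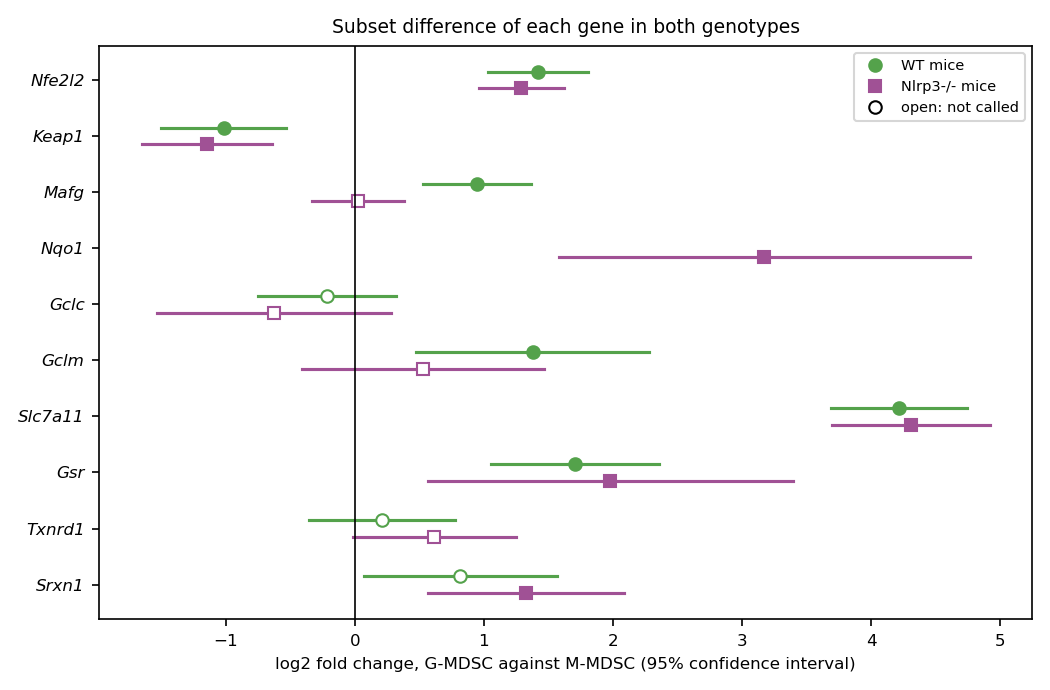
Log2 fold change of G-MDSCs against M-MDSCs for each gene with its 95% confidence interval, in WT (circles) and Nlrp3-/- mice (squares). Filled symbols were called. Slc7a11 lies above 4 in both genotypes, Keap1 lies below 0 in both, and the Mafg values are 0.95 and 0.02.

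A wider list of 70 genes was read beside the 10, made up of other NRF2 regulators and genes for glutathione supply and use, the thioredoxin system, NADPH supply, heme and iron handling, and quinone and carbonyl detoxification. In M-MDSCs 56 of them were tested, 2 were called higher and 2 lower in Nlrp3-/- mice, a share of 7.14% where 10.6% of all genes were called. In G-MDSCs 55 were tested, 6 were called higher and 3 lower, a share of 16.4% where 16.4% of all genes were called. The median log2 difference of the list was 0.16 in M-MDSCs and 0.24 in G-MDSCs, against 0.07 and 0.03 over all tested genes. That of the 10 genes was below 0 in both. Scaling by library size alone gave 8 calls of the wider list in M-MDSCs, and the replicate block 2 there and 5 in G-MDSCs. In G-MDSCs the offsets for GC content and length gave 3, and with the block 1 was left in each subset. Leaving out 1 library at a time gave 1 to 7 calls in M-MDSCs, with 1 or 2 without WT mouse 2 or 3 or Nlrp3-/- mouse 2, 3 or 4 and 7 without Nlrp3-/- mouse 1, and 4 to 11 calls in G-MDSCs, with 4 or 5 without WT mouse 2 or Nlrp3-/- mouse 2 or 4.

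Among the regulators, Gsk3b, a kinase that directs NRF2 to KEAP1-independent degradation, was lower in Nlrp3-/- mice in both subsets. It was at 191 ± 14.2 CPM in WT and 107 ± 30.8 CPM in Nlrp3-/- M-MDSCs (log2 -0.82, SE 0.19, adjusted p = 0.0196 by edgeR's quasi-likelihood test), and at 323 ± 75.8 and 147 ± 19.1 CPM in G-MDSCs (log2 -1.22, SE 0.18, adjusted p = 0.000526). Bach1, a repressor that competes with NRF2 for the antioxidant response element, was lower in Nlrp3-/- G-MDSCs, at 163, 191, 126 and 139 CPM in WT and 112, 89.6, 80.4 and 75.3 CPM in Nlrp3-/- mice (log2 -0.88, SE 0.18, adjusted p = 0.00491). Both genes are known to restrain NRF2. Gpx3, a secreted glutathione peroxidase, was lower in Nlrp3-/- M-MDSCs, at 12.4 ± 4.95 CPM in WT and 2.45 ± 0.354 CPM in Nlrp3-/- mice (log2 -2.32, SE 0.33, adjusted p = 0.00298). Sesn2, a stress-induced sestrin linked to peroxiredoxin repair, was lower in Nlrp3-/- G-MDSCs, at 33.1, 58.9, 32.5 and 34.6 CPM in WT and 4.16, 0.247, 6.22 and 3.67 CPM in Nlrp3-/- mice (log2 -3.53, SE 0.48, adjusted p = 0.000269). The groups of these genes did not overlap. Without WT mouse 2 the calls of the wider list in M-MDSCs went from 4 to 2. The values of Gsk3b and Gpx3 without that library are not given here.

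Other genes of the wider list rose in Nlrp3-/- mice. Gpx1, the abundant cytosolic glutathione peroxidase, rose in M-MDSCs from 1668 ± 263 to 2467 ± 368 CPM (log2 0.59, SE 0.17, adjusted p = 0.0486 by edgeR's quasi-likelihood test), and it was not called without WT mouse 2. In G-MDSCs Prdx1, a peroxiredoxin reduced by thioredoxin, rose by 0.72 on the log2 scale (adjusted p = 0.0323) and Taldo1, transaldolase of the pentose phosphate pathway, by 0.59 (adjusted p = 0.0189). Ftl1, the ferritin light chain, rose in G-MDSCs from 249 to 1001 CPM in WT to 1418 to 1887 CPM in Nlrp3-/- mice (log2 1.38, SE 0.31, adjusted p = 0.00815). Ftl1 has near-identical pseudogene copies and its counts are uncertain, and red pulp macrophages, whose markers were higher in the same libraries, express much ferritin. The part of these cells in the Ftl1 level was not tested.

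Between the subsets the wider list had large differences in both directions, at about the share of all genes, with 33 of 55 called in WT and 32 of 57 in Nlrp3-/- mice. Chac1, which degrades glutathione, was at 0 to 0.844 CPM in WT M-MDSCs and 24.7 to 56.4 CPM in WT G-MDSCs. Its WT M-MDSC values were at or near the limit of detection. In WT mice it passed the count filter only through the G-MDSC libraries, so that its call follows in part from the filter. The level of Chac1 in Nlrp3-/- M-MDSCs is not given here. Osgin1, an oxidative stress response gene, was at 4.80 to 9.10 CPM in WT M-MDSCs and 231 to 416 CPM in WT G-MDSCs (log2 5.36, SE 0.26, adjusted p = 2.37e-08 by edgeR's quasi-likelihood test). Ggt5, a glutamyltransferase that cleaves glutathione conjugates, was higher by 4.61 (SE 0.26, adjusted p = 5.62e-08). The glutathione transferases Gsto1 and Gstm1 and the peroxiredoxin Prdx1 were lower in WT G-MDSCs, with log2 differences of -3.22, -3.61 and -3.00 (SE 0.19, 0.26 and 0.22). Gstm1 belongs to a family with near-identical members, and reads may be split among them. In Nlrp3-/- mice the leading genes of the list were Ggt5, Osgin1, Prdx1, Chac1, Gsto1 and Fth1, the ferritin heavy chain, which was higher in G-MDSCs by 2.30 (SE 0.18, adjusted p = 1.21e-07).

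**Figure D5:**
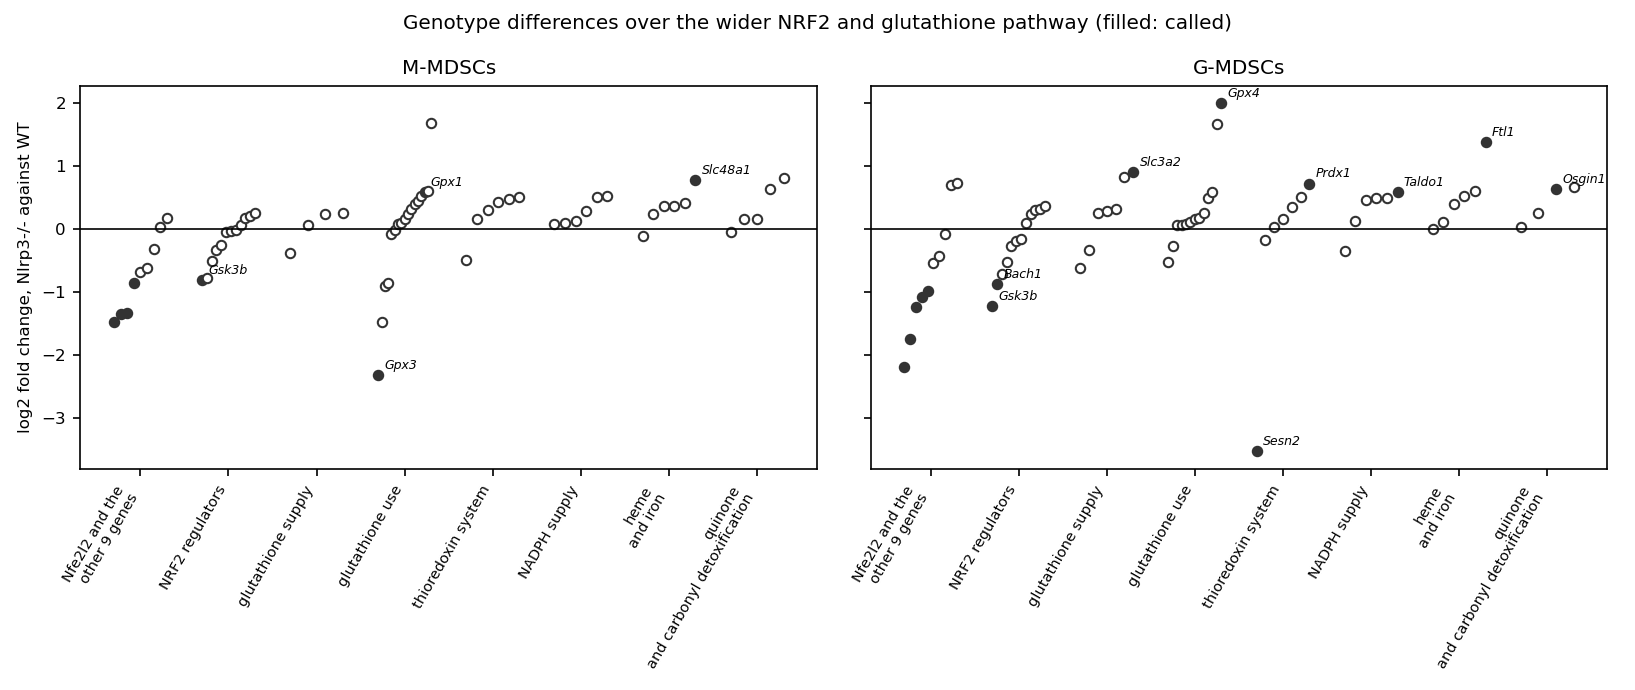
Log2 fold change of Nlrp3-/- against WT for the tested genes of the 10 and of each list of the wider pathway, in M-MDSCs and G-MDSCs. Each point is 1 gene, filled where called, and called genes of the wider lists are named. The 10 genes lie mostly below 0 (7 of 9 in M-MDSCs and 8 of 10 in G-MDSCs), while most genes of the wider list lie above 0 (38 of 56 and 41 of 55). Of all tested genes, 5495 of 9986 in M-MDSCs and 4812 of 9273 in G-MDSCs lie above 0.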

How the data were processed

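Per the labels and the study's methods, each RNA sample came from 1 mouse, libraries were made with the QuantSeq 3′ forward kit, and the authors aligned reads to mm10 with HISAT2 2.1.0 and counted them per gene by strand with HTSeq. The deposited files hold raw counts, whole numbers for 24421 gene symbols in each of 16 libraries, and were used as they are. Libraries were amplified by 15 or 17 cycles, and which library had which number is not given in the sources used here. Whether the number of cycles followed genotype or subset is therefore not known. The 3-count limit covers counting error only, whereas standard errors and intervals of fold changes come from the fit and hold the spread between libraries too.

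The 10 genes and all lists were chosen with earlier results of these data known. Groups were taken from the sample labels. The analysis ran in R 4.3.3, with edgeR 4.0.16 for the counts. Within the 8 libraries of a comparison, genes passing filterByExpr were scaled by TMM and tested by the quasi-likelihood test, with Benjamini-Hochberg adjustment over all tested genes. A gene was called at an adjusted p under 0.05 and a fold change above 1.5, or at the adjusted p alone for the difference of genotype effects between subsets, fitted on all 16 libraries. Printed levels are scaled over all 16 libraries, so that ratios of means can differ slightly from the fitted fold changes. The standard error is the log2 fold change divided by the square root of F. Log2 CPM for correlations used a prior count of 2.

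Within a genotype, the M-MDSC and G-MDSC libraries that share a number carry the same animal tag in their descriptions, and each RNA sample is stated to stand for 1 mouse, so that they were taken as 1 animal. Their deviations from the group means correlated by 0.24 on average in WT and 0.19 in Nlrp3-/- mice (4 pairs each, at least 0.0971 in WT and 0.00821 in Nlrp3-/- mice). None of the 24 pairs of libraries within a group was identical or agreed within sampling noise. The scripts were tested on simulated data. Alternatives were DESeq2 1.42.0, edgeR's exact test, other scalings and filters, a replicate block, a model of all 16 libraries, no fold minimum, offsets for GC content and transcript length (24054 symbols, 98.5%, matched to GENCODE vM21), and leaving out each library. Genes named beyond the 10 were those of the wider list called without overlap between groups, at most 6 per comparison by smallest p, the 5 most like Nfe2l2, and Nlrp3. Other cell types were read from 10 marker lists, of which the text prints those that separated the subsets or moved with the genotype and the melanoma list. In the remaining lists no tested marker of erythroid, T and NK or eosinophil and basophil cells was called between the genotypes. Few of them could be tested, 4 of 8 erythroid and 1 of 6 eosinophil and basophil markers in each subset. The globin genes Hbb-bt, Hbb-bs, Hba-a1 and Hba-a2 had 0 counts in every library. Of the T and NK markers, 7 of 7 were tested in M-MDSCs and 6 in G-MDSCs. In each subset 1 B cell marker was called lower, and 1 platelet marker was called higher in G-MDSCs. Promoter windows came from RefSeq. Figures were drawn with Python 3.11.15 and matplotlib 3.10.9.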

Additional observations from a re-analysis of the deposited data

How the results depend on the processing

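The calls of Mafg, Gclc and Nfe2l2 in G-MDSCs were kept under every alternative and without any single library, and that of Txnrd1 in M-MDSCs under all but the GC content and length offsets combined with the replicate block (adjusted p = 0.0565). Counts were least stable in M-MDSCs, and depth limited Nqo1, which gave at most 5 counts there. WT and Nlrp3-/- mice share replicate numbers but not animals, and same-numbered libraries of the 2 genotypes did not deviate together (mean r -0.16 in M-MDSCs and -0.15 in G-MDSCs, none best with its own number). With that number as a replicate block 2 of the 10 genes and 425 of all genes were called in M-MDSCs, and 985 of all genes in G-MDSCs. With the mouse as the replicate block, the subset comparisons changed no other call of the 10 genes than that of Srxn1. The GC content and length offsets gave 668 calls in M-MDSCs (56.1% lower) and 965 in G-MDSCs (57.5% lower), and with the replicate block 0 of the 10 genes and 48 of all genes in M-MDSCs, and 3 and 396 in G-MDSCs. For the difference between subsets DESeq2 called 8 genes and the fit with no filter 5, none of them among the 10. The cause of these shifts was not tested. In M-MDSCs scaling by library size alone moved the median of all genes from 0.07 to 0.17, and Gclm was lost (adjusted p = 0.0510), as it was with the block (0.121), the offsets (0.143) and the model of all 16 libraries (0.0509), and in G-MDSCs it moved from 0.03 to 0.16.

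Leaving out 1 library at a time gave 1 to 5 calls among the 10 genes and 450 to 1783 among all genes in M-MDSCs, with under 707 without WT mouse 2, 3 or 4 or Nlrp3-/- mouse 3 or 4 and the most without Nlrp3-/- mouse 1. In G-MDSCs it gave 4 to 6 and 1104 to 1544, between the subsets 6 to 7 and 4838 to 5272 in WT and 5 to 7 and 4810 to 5106 in Nlrp3-/- mice, and for the difference of effects 0 to 0 and 2 to 5.

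No value that changed sign was called before or after, with 1 exception, Mafg between the subsets of Nlrp3-/- mice, which library size alone called lower at -0.69 (adjusted p = 0.00272). Most started near 0, but Slc7a11 in G-MDSCs turned from -0.54, Gclm between the subsets of Nlrp3-/- mice from 0.53, and Txnrd1 from 0.21 in WT and 0.62 in Nlrp3-/- mice. Mafg there was -0.13 with upper-quartile scaling, -0.011 with no filter, -0.032 with at least 10 counts in every library, and -0.056 to 0.13 when 1 library was left out. Keap1 in M-MDSCs was -0.20 with the GC content and length offsets, -0.18 with the block added, and -0.13 to 0.31 when 1 library was left out. Keap1 in G-MDSCs was 0.044 by library size alone, 0.00093 in the model of all 16 libraries, and -0.25 to 0.093 when 1 library was left out. Slc7a11 in G-MDSCs was 0.14 with the offsets and 0.11 with the block added. Between the subsets of WT mice Txnrd1 was -0.53 by library size alone, -0.0029 by upper-quartile scaling, and -0.054 to 0.32 when 1 library was left out. In Nlrp3-/- mice library size alone gave -0.19 for Gclm and -0.11 for Txnrd1. The difference of effects of Keap1 was 0.00049 with no filter. When 1 library was left out that difference ranged from -0.23 to 0.12 for Nfe2l2, -0.29 to 0.17 for Keap1, -1.54 to 0.23 for Nqo1, -0.28 to 0.38 for Slc7a11 and -0.21 to 1.31 for Gsr.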

Other observations

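The wider list held 4 further calls that the naming rule left out, given here after their values were seen. Slc3a2, the heavy chain that carries the SLC7A11 transporter to the membrane, was at 148, 76.8, 252 and 225 CPM in WT G-MDSCs and at 272, 332, 301 and 489 CPM in Nlrp3-/- G-MDSCs (log2 0.90, SE 0.30, adjusted p = 0.0489 by edgeR's quasi-likelihood test). All Nlrp3-/- mice were above all WT mice, while Slc7a11 in the same libraries was below. Gpx4, the glutathione peroxidase of lipid peroxides, gave 5, 7, 5 and 17 counts in WT and 104, 50, 30 and 24 counts in Nlrp3-/- G-MDSCs (log2 2.00, SE 0.59, adjusted p = 0.0316), and its CPM overlapped between the groups. Osgin1 was higher in Nlrp3-/- G-MDSCs (log2 0.63, SE 0.21, adjusted p = 0.0494) with overlapping groups. Slc48a1, a heme transporter, was higher in Nlrp3-/- M-MDSCs (log2 0.78, SE 0.20, adjusted p = 0.0287), also with overlap. Its value without WT mouse 2 is not given here.

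Dixon's test over the 10 genes in each of the 4 groups, 40 tests in all, singled out no library.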
